A study of Mus musculus with 24 samples.

Results

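The genes examined were 10 members of the BCL2 family, Bcl2, Bcl2l1, Mcl1, Bcl2a1b, Bcl2a1d, Bcl2l11, Bbc3, Pmaip1, Bax and Bak1, chosen by gene symbol from the 55487 genes of a bulk RNA-seq count table. All 10 members were detected well enough to be tested. The 24 libraries were made from sorted innate lymphocytes of the small-intestinal lamina propria of mice aged 8 to 12 weeks. Each of 4 sorted populations, labelled ILC1, NKp46, CCR6 and DN, was sampled in both genotypes with 3 libraries per group. Mice labelled DKO carried Vav1-Cre, which acts in blood cells of all lineages, together with floxed alleles of Nr1d1 and Nr1d2, the genes of the circadian repressors REV-ERBα and REV-ERBβ. Mice labelled WT were littermates with the floxed alleles and without a stated Cre. ILC1 are innate lymphocytes that make interferon gamma, NKp46 is a receptor on part of the ILC3, CCR6 marks lymphoid tissue inducer-like ILC3, and no source used here explains the label DN. Whether the 3 libraries of a group are from different animals is not labelled, and p-values therefore reflect library-to-library spread, which may be technical.

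BCL2 family proteins decide at the outer membrane of mitochondria whether a cell enters apoptosis. Pro-survival members (BCL2, BCL-XL, MCL1 and A1) bind and hold the pore-forming effectors BAX and BAK, and BH3-only members (BIM, PUMA, NOXA) occupy the pro-survival proteins and so free the effectors. In lymphocytes, interleukin 7 and interleukin 15 maintain Bcl2 and Mcl1, and NF-κB drives Bcl2a1.

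Library totals ranged from 12.8 M to 84.4 M counts (M, 1e6 counts). Levels are CPM, counts per M of the scaled library total, and fold changes are log2 of DKO over WT ± SE from edgeR's quasi-likelihood test, called at a Benjamini-Hochberg adjusted p under 0.05 over 21286 genes. The smallest library, WT ILC1 library 2 with 12.8 M counts, stood apart from the other ILC1 libraries in several members, and its values are given where they matter. Summed levels of 7 ILC1 and NK cell markers were highest in ILC1 libraries (2821 to 3589 CPM in DKO, 2388 to 4321 in WT) and lowest in CCR6 libraries (17.5 to 25.3 CPM in DKO, 30.03 to 51.4 in WT), and 4 LTi-like markers summed to 1257 to 1739 CPM in DKO CCR6 and 2373 to 2569 in WT CCR6, against at most 271.5 CPM in any library of the other populations. The targeted genes were not lower in the libraries labelled DKO: on average over the populations Nr1d1 was higher by 1.63 ± 0.10 on the log2 scale (adjusted p = 1.6e-10) and Nr1d2 by 1.52 ± 0.18 (adjusted p = 3.2e-06). Gene totals cannot show which exons were deleted, so these genes do not check the genotype labels.

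Mouse Bcl2a1 exists as near-identical copies on chromosome 9, which bears on how far their counts can be separated. In GENCODE transcripts of the GRCm38 build, the coding sequences of Bcl2a1d and Bcl2a1b, each of 516 bases, differed at 6 positions (98.8% identity), and their longest identical stretch was 217 bases. Bcl2a1d and another copy, Bcl2a1a, differed at 7 positions (98.6%), with an identical stretch of 314 bases. The first 120 coding bases of the copies are given below, since they hold 7 positions at which at least 1 copy differs; those positions are in capitals.
Bcl2a1d (chr9:88731600-88731719, minus strand): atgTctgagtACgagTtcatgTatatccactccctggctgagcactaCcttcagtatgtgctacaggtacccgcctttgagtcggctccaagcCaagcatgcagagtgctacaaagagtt
Bcl2a1b (chr9:89199360-89199479, plus strand): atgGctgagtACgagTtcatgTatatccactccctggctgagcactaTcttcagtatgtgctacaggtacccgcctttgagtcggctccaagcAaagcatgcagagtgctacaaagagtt
Bcl2a1a (chr9:88957051-88957170, plus strand): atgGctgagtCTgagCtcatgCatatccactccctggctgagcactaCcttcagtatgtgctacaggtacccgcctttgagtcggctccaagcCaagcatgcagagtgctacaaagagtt
Reads from the stretches in lower case cannot be assigned to a single copy by sequence. The rows of the 3 copies moved together in the comparisons below, and the part of shared reads or of upstream sequence was not tested. The regions upstream of the copies are given next. They are taken from RefSeq on GRCm38.p6, and capitals mark bases that differ from Bcl2a1d or are inserted relative to it.
Bcl2a1d (chr9:88731915-88732044, minus strand): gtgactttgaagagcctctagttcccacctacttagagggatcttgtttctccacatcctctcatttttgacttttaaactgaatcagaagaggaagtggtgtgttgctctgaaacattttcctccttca
Bcl2a1b (chr9:89199029-89199164, plus strand): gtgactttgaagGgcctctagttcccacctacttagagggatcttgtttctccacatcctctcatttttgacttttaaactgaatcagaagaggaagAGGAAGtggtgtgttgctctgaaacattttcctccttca
Bcl2a1a (chr9:88956720-88956855, plus strand): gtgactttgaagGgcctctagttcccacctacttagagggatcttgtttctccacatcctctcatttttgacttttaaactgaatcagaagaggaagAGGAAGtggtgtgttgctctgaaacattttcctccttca
Bcl2a1b and Bcl2a1a were the same over this stretch, and both differed from Bcl2a1d by 1 base and by an insertion, together 7 bases in capitals. Some members also overlap other annotated genes, and whether counting used strand is not given in the sources used here. Bcl2a1b shares 401 of its 817 exon bases with Gm29094 and Bax shares 192 with Gm45808, and both of these genes had 0 counts in all libraries. Each lies on the same strand as the member, so strand would not separate their reads. How reads in bases shared between genes were counted is not given, so the 0 counts do not show that the member kept such reads. Bcl2 shares 558 bases with the antisense gene D630008O14Rik, which reached at most 3.96 CPM, and Bak1 shares stretches of 437 and 177 bases with Ggnbp1, which reached at most 1.61 CPM.

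The pro-survival genes differed widely in level. Per kb of exon, WT libraries had on average 58.1 to 83.2 CPM of Bcl2l1, which encodes BCL-XL, 19.5 to 56.01 of Bcl2 and 18.1 to 31.3 of Mcl1. Bcl2a1d, the A1 copy with the most counts, spanned the widest range, with 180.1 ± 58.8 CPM per kb in WT ILC1 and 13.4 ± 2.63 in WT CCR6 (SD, n = 3). The A1 copies may share reads, so these are levels of a row, and the true level of each copy was not tested. Among the death genes, Bax stood at 69.8 to 84.5 CPM per kb in WT groups, while the other effector, Bak1, stood at 1.89 to 4.12. The BH3-only genes were low per kb in WT groups, at 4.40 to 8.23 for Bcl2l11, 1.23 to 4.64 for Bbc3 and 0.392 to 2.99 for Pmaip1.

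**Figure D1:**
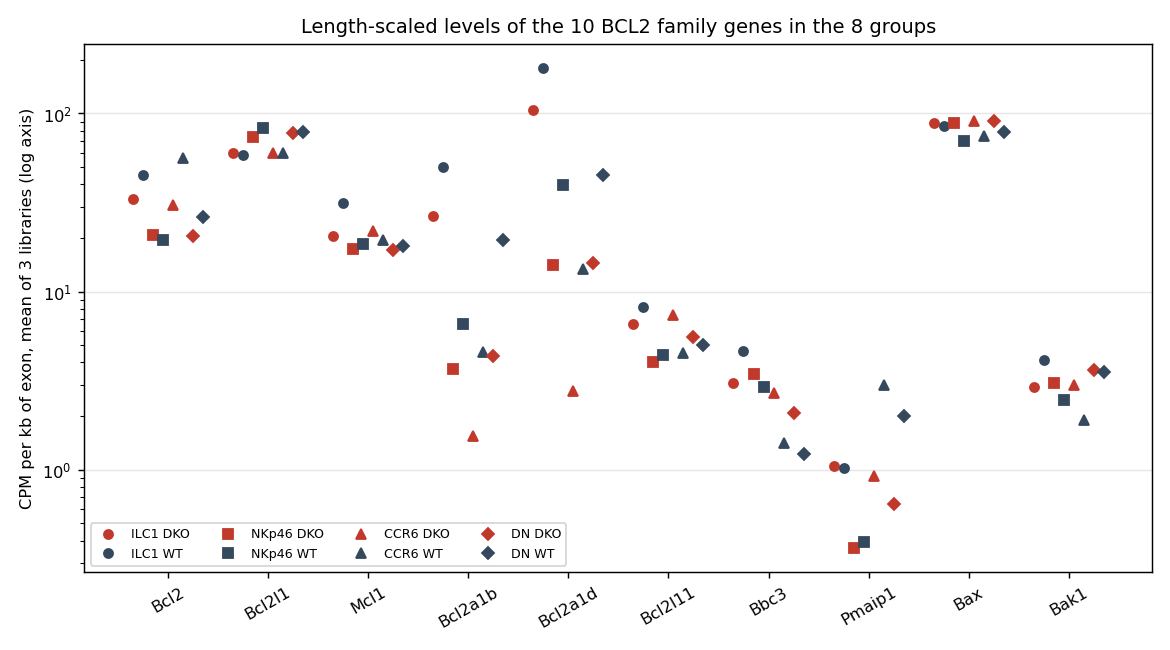
Mean level of each BCL2 family gene in the 8 groups, in CPM per kb of exon on a log axis, with DKO in red and WT in dark blue and a marker shape per population. Bax and Bcl2l1 lie in a narrow band between 58.1 and 90.7, whereas Bcl2a1d runs from 2.76 in DKO CCR6 to 180.1 in WT ILC1.

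The comparison of DKO with WT asks which members change when REV-ERBs are lost. In CCR6 cells Bcl2 fell, both A1 copies fell and Bcl2l11, the gene of the BH3-only protein BIM, rose. In DN cells both A1 copies fell, in NKp46 cells Bcl2a1d fell, and in ILC1 no member passed the test. Of 40 member-by-population values, 7 were called, 1 higher and 6 lower. Bcl2a1b and Bcl2a1d, which may share reads, were counted as separate members. By population, 4 of 10 members were called in CCR6, where 3.97% of all tested genes were called, and 3 of them were lower (2.04% of all genes lower). DN cells had 2 members called, both lower, against 2.83% of all genes called and 1.34% called lower. NKp46 cells had 1 member called, lower, against 4.16% of all genes called and 2.17% called lower, and ILC1 had 0, against 1.06% of all genes. In ILC1 edgeR gave 5 members an unadjusted p under 0.05 (Bcl2, Mcl1, Bcl2a1b, Bcl2a1d and Bcl2l11), DESeq2 called 2 (Bcl2 and Bcl2a1b) and limma voom called 1. Without WT ILC1 library 2, or without WT ILC1 library 3, edgeR called 8 values within populations in place of 7. Averaged over the populations, 4 members were called (Bcl2, Bcl2a1b and Bcl2a1d lower, Bax higher), against 10.8% of all genes called and 5.99% called lower. The median log2 fold change of the 10 members was 0.09 in CCR6 against -0.02 over all tested genes, and -0.06 in DN against -0.04. It was -0.10 for NKp46 cells against -0.02 over all genes, and -0.46 for ILC1 against 0.00.

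**Figure D2:**
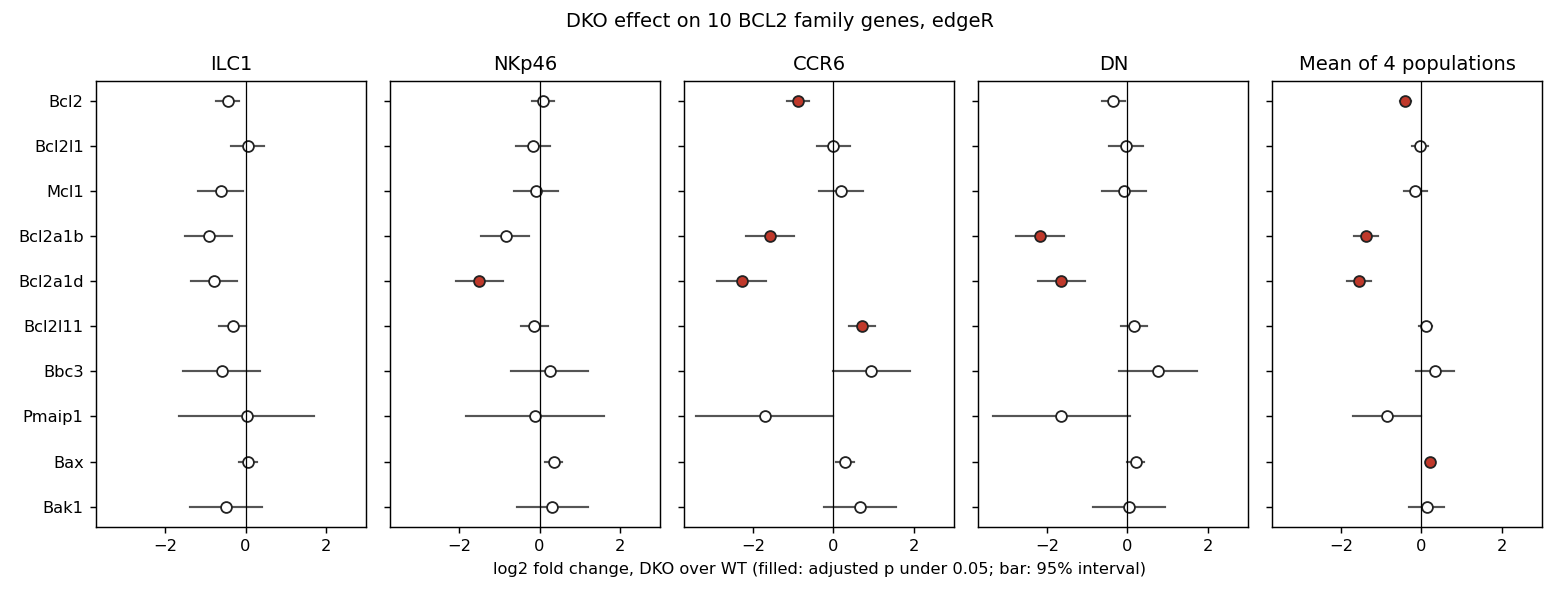
Log2 fold change of DKO over WT for each member in the 4 populations and on average, with 95% intervals; filled points passed an adjusted p of 0.05. Bcl2a1b and Bcl2a1d lie below 0 in every panel, and Bcl2 departs furthest in CCR6, at -0.88.

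Bcl2, the founding pro-survival gene (chromosome 1, 106538178 to 106714274, minus strand, GRCm38), had its highest WT level in CCR6 cells. It measured 276, 266 and 294 CPM in the DKO CCR6 libraries, against 509, 509 and 521 CPM in the WT CCR6 libraries. The groups were far apart relative to their spread, at 279 ± 14.1 CPM in DKO and 513 ± 7.20 in WT (SD, n = 3), a log2 fold change of -0.88 ± 0.13 (edgeR, adjusted p = 1.9e-04). In ILC1, Bcl2 measured 250.3, 332 and 325 CPM in DKO, against 398, 366 and 469.7 CPM in WT. The ILC1 groups did not overlap, but the difference of -0.44 ± 0.13 missed the threshold (adjusted p = 0.14). In DN, values of 177, 177 and 208 CPM in DKO stood below 249, 254 and 216 CPM in WT, at -0.35 ± 0.13 (adjusted p = 0.22). Over all tested genes, DKO and WT libraries did not overlap in 24.8% of genes for CCR6, 24% for DN and 10.8% for ILC1. In NKp46 the DKO libraries, at 160.4, 178 and 231 CPM, lay on both sides of the WT libraries, at 176, 184 and 176 CPM, and the difference was 0.09 ± 0.13 (adjusted p = 0.83). Averaged over the 4 populations Bcl2 fell by 0.40 ± 0.07 on the log2 scale (adjusted p = 2.3e-04).

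Bcl2 was 1.47-fold higher in CCR6 than in NKp46 among DKO libraries and 2.87-fold higher among WT libraries. A joint test of any difference of the DKO effect among the 4 populations called Bcl2 (adjusted p = 0.043) and Bcl2l11 (adjusted p = 0.047), where 1.37% of all genes were called. Both joint calls were close to the threshold. For Bcl2 the call was lost when any 1 of 19 of the 24 libraries was left out (adjusted p from 0.018 to 0.16 over the 24 fits), that is all but DKO ILC1 library 1, the 3 WT ILC1 libraries and DKO NKp46 library 1. For Bcl2l11 it was lost without any 1 of 22 libraries (0.034 to 0.15), all but library 2 of DKO ILC1 and library 2 of WT ILC1, and without a filter on low counts (adjusted p = 0.22).

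Bcl2l11 (chromosome 2, 128126038 to 128162547, plus strand) encodes BIM, the BH3-only protein that limits the survival of many lymphocytes. In CCR6 cells it measured 62.8, 59.5 and 55.3 CPM in DKO, against 31.3, 40.6 and 36.4 CPM in WT. Every DKO library was above every WT library; the genotypes did not overlap in 24.8% of all tested genes in CCR6 and 10.8% in ILC1. Bcl2l11 rose in CCR6 by 0.71 ± 0.15 on the log2 scale, or 1.64-fold (edgeR, adjusted p = 0.0064). The call was lost without WT CCR6 library 1 (adjusted p = 0.062) and with no filter on low counts (0.054). In ILC1 the 3 DKO libraries, at 43.1, 61.96 and 53.3 CPM, were all below the WT libraries, at 62.3, 65.7 and 70.2 CPM, with a difference of -0.32 ± 0.15 that was not called (adjusted p = 0.37). NKp46 and DN libraries of both genotypes overlapped, with differences of -0.13 ± 0.15 (adjusted p = 0.76) and 0.16 ± 0.15 (adjusted p = 0.82). In CCR6 the log2 intervals were -1.16 to -0.60 for Bcl2 and 0.39 to 1.04 for Bcl2l11.

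As a description of the balance between the 2 genes, counts of Bcl2 per count of Bcl2l11 were taken in each library. The ratio was 4.39, 4.48 and 5.32 in DKO CCR6, against 16.2, 12.5 and 14.3 in WT CCR6. WT CCR6 was the group that stood out, with a mean of 14.4 ± 1.85. The other 7 groups had means between 4.20 in DKO DN and 6.21 in WT ILC1, and DKO CCR6, at 4.73 ± 0.51, lay among them.

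**Figure D3:**
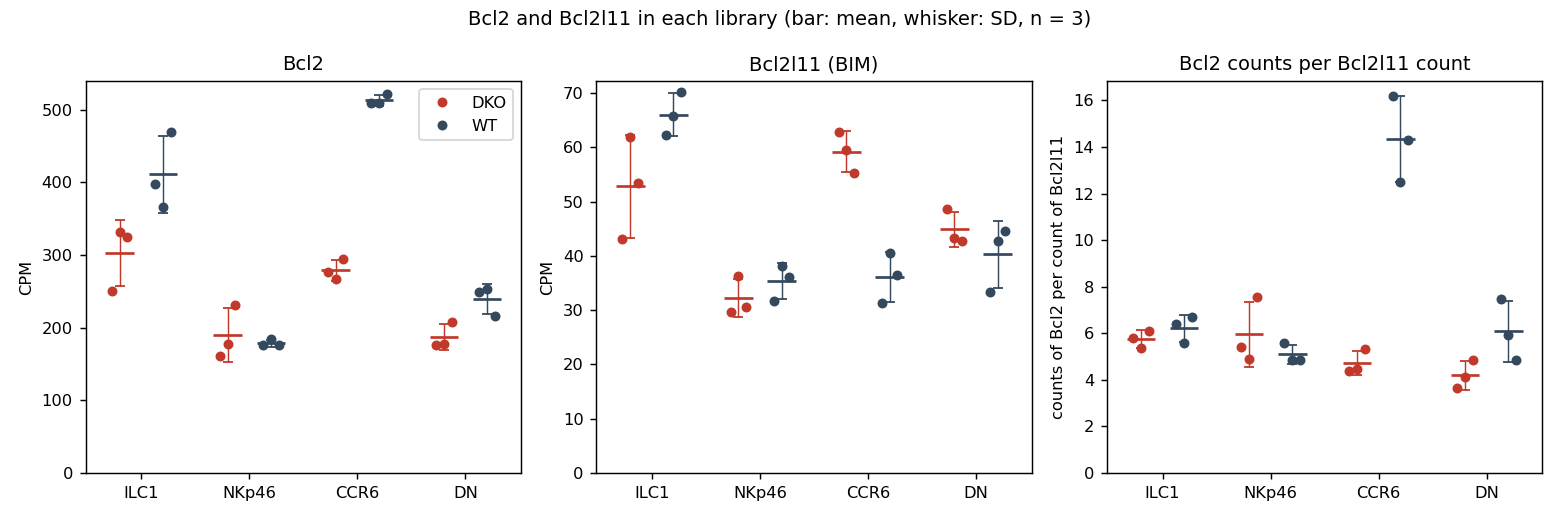
Bcl2 and Bcl2l11 in CPM and the number of Bcl2 counts per Bcl2l11 count, each point a library, DKO (red) left of WT (dark blue) in each population, with mean and SD. The 3 WT CCR6 libraries have ratios of 12.5 to 16.2, above every other library.

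Among the 10 members, the A1 genes had the largest called fold changes. Bcl2a1d (chromosome 9, 88723285 to 88731914, minus strand) measured 2.75, 1.17 and 3.23 CPM in DKO CCR6, against 14.1, 11.03 and 9.63 CPM in WT CCR6. In DN it measured 10.7, 11.99 and 14.8 CPM in DKO, against 38.8, 35.8 and 42.5 CPM in WT. In NKp46 it measured 14.9, 10.7 and 10.7 CPM in DKO, against 38.04, 31.1 and 33.7 CPM in WT. The highest DKO library was below the lowest WT library in each of these populations. Genotypes did not overlap in 24.8% of all tested genes in CCR6, 24% in DN and 21.5% in NKp46. Bcl2a1d fell by 2.28 ± 0.29 in CCR6 (adjusted p = 1.6e-05), and by 1.64 ± 0.27 in DN (adjusted p = 7.5e-04) on the log2 scale. In NKp46 it was 2.82-fold lower in DKO (adjusted p = 0.0018). ILC1, which had the most Bcl2a1d, measured 102, 95.8 and 72.8 CPM in DKO, against 214, 127.5 and 125 CPM in WT. The ILC1 groups did not overlap either (10.8% of all tested genes), but the difference of -0.78 ± 0.27 was not called (adjusted p = 0.20).

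Bcl2a1b (chromosome 9, 89199209 to 89207827, plus strand) had fewer counts. It measured 3.13, 2.75 and 4.72 CPM in DKO DN, against 13.2, 18.1 and 16.5 CPM in WT DN, and fell by 2.17 ± 0.29 (adjusted p = 4.5e-05). In CCR6 it measured 1.05, 1.04 and 1.67 CPM in DKO, against 4.14, 3.45 and 3.63 CPM in WT, and fell by 1.58 ± 0.29 (adjusted p = 0.0013). No library of DKO overlapped WT in these populations, as in 24% of all tested genes in DN and 24.8% in CCR6. The differences in NKp46 (-0.84 ± 0.28, adjusted p = 0.10) and ILC1 (-0.91 ± 0.27, adjusted p = 0.14) had the same sign and were not called. Libraries again did not overlap, as in 21.5% of all tested genes in NKp46 and 10.8% in ILC1. Without WT ILC1 library 3 the ILC1 difference was -1.08 and was called (adjusted p = 0.042). Averaged over the populations, Bcl2a1d fell by 1.55 ± 0.14 (adjusted p = 3.1e-08) and Bcl2a1b by 1.37 ± 0.14 (adjusted p = 2.9e-07).

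The fall was also seen with the copies summed. Bcl2a1d held 58.1% to 77.5% of the counts of the 4 Bcl2a1 rows in each group, Bcl2a1b 12.2% to 30.4% and Bcl2a1a 8.09% to 13.3%. The summed rows measured 4.1 ± 1.47 CPM in DKO CCR6 and 17.9 ± 3.85 in WT CCR6, 17.8 ± 2.95 in DKO DN and 62.4 ± 3.40 in WT DN, and 16.6 ± 3.38 in DKO NKp46 and 44.1 ± 2.92 in WT NKp46 (SD, n = 3). With the rows summed and tested as 1 gene, A1 fell by 2.13 ± 0.24 in CCR6 (adjusted p = 5.1e-06), 1.81 ± 0.24 in DN (adjusted p = 4.5e-05) and 1.41 ± 0.24 in NKp46 (adjusted p = 7.0e-04). In ILC1 the sum was 127 ± 20.2 CPM in DKO and 217 ± 60.3 in WT, with a difference of -0.78 ± 0.23 that was not called (adjusted p = 0.13). The difference of the DKO effect among populations was not called for Bcl2a1d or Bcl2a1b (joint test, adjusted p = 0.19 each), so a different response of ILC1 was not shown; DESeq2 called both joint tests (0.044 for Bcl2a1d and 0.036 for Bcl2a1b), and edgeR without a filter called that of Bcl2a1d (0.0056). A direct test of the DKO effect in ILC1 against the mean effect of the other populations called 0 of the 10 members (0.803% of all genes); 3 members had an unadjusted p under 0.05 by edgeR (Bcl2a1d, Bcl2l11 and Bbc3), DESeq2 called 1 (Bcl2l11) and limma voom 0.

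**Figure D4:**
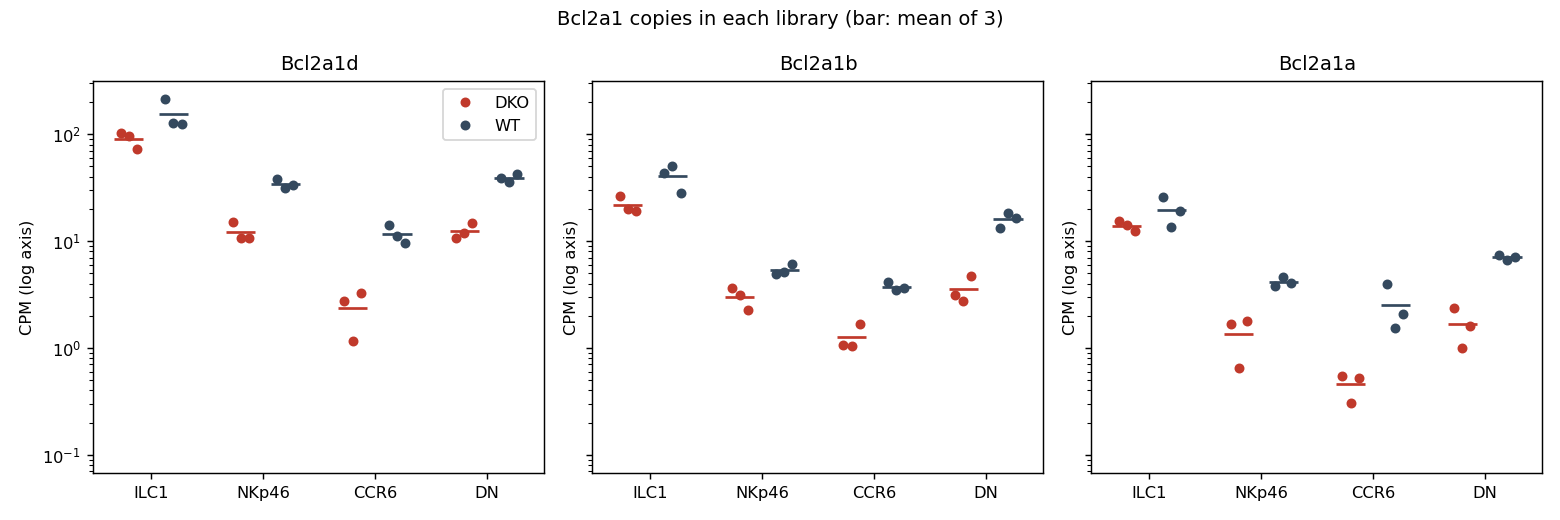
Levels of Bcl2a1d, Bcl2a1b and Bcl2a1a in CPM on a log axis, each point a library, DKO (red) left of WT (dark blue), with a bar at the mean of 3. DKO and WT libraries are apart for Bcl2a1d and Bcl2a1b in all 4 populations, and Bcl2a1a overlaps in ILC1, where DKO spans 12.3 to 15.3 and WT 13.7 to 26.1.

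Several marker lists moved along with A1 and others did not, and their part in the result was not tested. The summed level of 11 myeloid markers was lower in DKO in each population, at 1110 to 1415 CPM in DKO and 1604 to 2070 in WT ILC1, 572 to 692 in DKO and 949 to 1063 in WT NKp46, 514 to 654 in DKO and 896 to 1164 in WT CCR6, and 470 to 515 in DKO and 607 to 649 in WT DN. Most of that sum was Fcer1g, a signalling chain that innate lymphocytes also express, with 586 ± 79.5 CPM in DKO CCR6 and 996 ± 135 in WT CCR6; 3 of the 11 markers were called lower in CCR6, 1 in NKp46 and 0 in DN and in ILC1. Of the other 10 myeloid markers, none averaged above 20.9 CPM in any CCR6, NKp46 or DN group, the level of Tyrobp, another signalling chain of innate lymphocytes, in WT NKp46. In ILC1 they were higher, with Tyrobp at 152 ± 25.2 CPM in DKO and 306 ± 19.97 in WT and the dendritic cell integrin Itgax at 38.1 ± 9.22 in DKO and 83.4 ± 30.4 in WT (SD, n = 3). In DN, 10 T cell markers summed to 1349 to 1555 CPM in DKO and 3011 to 3184 in WT, with 7 of 10 called lower. The 6 ILC3 markers summed to 2703 to 3002 CPM in DKO and 4349 to 6150 in WT CCR6, with 3 called lower, and to 1538 to 1654 in DKO and 3015 to 3578 in WT NKp46, with 2 called lower. They overlapped in DN, at 1931 to 2479 CPM in DKO and 2449 to 2626 in WT, where 3 were called lower, and summed to 404 to 448 in DKO and 523 to 670 in WT ILC1, where 2 were called lower. The 7 ILC1 and NK cell markers summed to 769 to 944 CPM in DKO and 1026 to 1286 in WT NKp46, with 0 called, and to 246 to 307 in DKO and 434 to 504 in WT DN, with 1 called lower. In CCR6 they summed to 17.5 to 25.3 CPM in DKO and 30.03 to 51.4 in WT, with 1 called higher and 2 lower. The 6 ILC2 markers summed to 623 to 914 CPM in DKO and 1082 to 1481 in WT DN, with 1 called lower. B and plasma cell markers summed to less in DKO in NKp46, CCR6 and DN, with 1 called lower in each. In ILC1 they went the other way, at 122.5 to 223.6 CPM in DKO and 79.3 to 97.2 in WT, with 1 called higher. In bulk libraries, fewer cells of a type and less RNA per cell cannot be told apart.

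The remaining pro-survival genes were not called in any population. Bcl2l1 (chromosome 2) averaged 276 ± 37.7 CPM in DKO CCR6 and 275 ± 14.3 in WT CCR6, and its log2 difference there was 0.00 with a 95% interval of -0.41 to 0.42. Its intervals in the other populations lay between -0.58 and 0.46. Mcl1 (chromosome 3), whose protein is short-lived and must be renewed constantly, averaged 75.1 ± 15.3 CPM in DKO CCR6 and 66.2 ± 9.32 in WT CCR6, with a difference of 0.18 ± 0.26. The widest spread in these genes came from WT ILC1 library 2. Mcl1 measured 71.6, 64.3 and 73.4 CPM in DKO ILC1, against 81.1, 177 and 63.01 CPM in WT ILC1, and Bcl2l1 measured 248, 319 and 261 CPM in DKO ILC1, against 314, 146.5 and 339.6 CPM in WT ILC1. Without that library the Mcl1 difference in ILC1 was -0.04 (adjusted p = 0.98) and that of Bcl2l1 was -0.24 (adjusted p = 0.46).

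The p53-induced BH3-only genes were low and variable. Pmaip1, the gene of NOXA (chromosome 18), measured 1.33, 3.12 and 3.07 CPM in DKO CCR6, against 9.37, 7.41 and 7.75 CPM in WT CCR6. In DN it measured 2.16, 1.01 and 2.09 CPM in DKO, against 5.38, 7.46 and 3.54 CPM in WT. DKO libraries were below WT libraries without overlap in both populations, but the differences of -1.71 ± 0.80 and -1.64 ± 0.80 missed the threshold (adjusted p = 0.36 and 0.42), and the CCR6 difference was called by limma voom (adjusted p = 0.021) and in a fit of the 2 CCR6 groups alone (0.014). Bbc3, the gene of PUMA (chromosome 7), measured 5.76, 5.01 and 6.46 CPM in DKO CCR6, against 2.49, 3.39 and 3.10 CPM in WT CCR6. All DKO values were above all WT values, with a difference of 0.94 ± 0.45 that was not called (adjusted p = 0.38). Over all tested genes, DKO and WT libraries did not overlap in 24.8% of genes for CCR6 cells, 24% for DN, 21.5% for NKp46 and 10.8% for ILC1, so separation of 3 against 3 libraries was common.

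Differences of the effectors were small or not called. Bax (chromosome 7, 45461697 to 45466898, minus strand) measured 140.0, 134 and 147 CPM in DKO NKp46, against 101, 114 and 115 CPM in WT NKp46. In CCR6 it measured 141, 147.5 and 139.5 CPM in DKO, against 127, 117.5 and 108 CPM in WT. Bax was higher in every DKO library than in every WT library in NKp46, CCR6 and DN, and overlapped in ILC1. Genotypes did not overlap in 21.5% of all tested genes in NKp46, 24.8% in CCR6 and 24% in DN. No single population was called (0.35 ± 0.11, adjusted p = 0.064, in NKp46), while DESeq2 called NKp46 (0.0092). On average over the populations Bax rose by 0.22 ± 0.05, or 1.17-fold (edgeR, adjusted p = 0.0063), a call that was lost without a filter on low counts (0.078). Bak1 (chromosome 17) measured 8.07, 7.64 and 5.75 CPM in DKO CCR6, against 4.94, 4.79 and 3.94 CPM in WT CCR6, and the difference of 0.65 ± 0.42 was not called (adjusted p = 0.61). In ILC1, Bak1 reached 18.3 CPM in WT library 2 and 3.10 and 8.32 CPM in the other WT libraries, which spanned the 5.43 to 9.56 CPM of DKO.

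The sorted populations differed in the family within each genotype. Among WT libraries, 20 of 60 member-by-pair values were called, 17 higher and 3 lower in the population named first. ILC1 against NKp46 had 4 of 10 members called, all higher (10.7% of all genes called, 5.13% called higher), ILC1 against CCR6 4 (19.3%) and ILC1 against DN 5 (7.61%). CCR6 against NKp46 had 3 (6.23%), CCR6 against DN 3 (5.84%) and DN against NKp46 1 (2.97%). Among DKO libraries 16 of 60 were called, 12 higher and 4 lower. The DKO pairs had 4 members called for ILC1 against NKp46 (4.77% of all genes), 2 for ILC1 against CCR6 (11.9%), 3 for ILC1 against DN (7.24%), 4 for CCR6 against NKp46 (4.80%), 3 for CCR6 against DN (1.79%) and 0 for DN against NKp46 (0.723%), where edgeR gave 1 member an unadjusted p under 0.05, DESeq2 called 1 (Bcl2l11 in both cases) and limma voom 0. The pairs within a genotype share libraries, but the DKO and WT sets do not. In both sets 14 member-by-pair values were called, all with the same sign, which is 87.5% of the DKO calls and 70.0% of the WT calls. They include Bcl2a1b and Bcl2a1d as separate members, although these copies may share reads. The matching share over all genes was not computed, so these percentages are a description only.

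Bcl2 was ordered CCR6 (513 ± 7.20 CPM), ILC1 (411 ± 53.3), DN (239.5 ± 20.5) and NKp46 (179 ± 4.82) in WT libraries. CCR6 and ILC1 were not called different from each other, nor were DN and NKp46, and all 4 comparisons across these sets were called, from 0.78 ± 0.13 for ILC1 against DN (adjusted p = 4.9e-04) to 1.52 ± 0.14 for CCR6 against NKp46 (adjusted p = 9.2e-08). In DKO libraries the same 4 comparisons were called with sizes of 0.55 to 0.69 on the log2 scale. The DKO calls of CCR6 against DN and against NKp46 were lost on leaving out any 1 of 5 libraries (DKO CCR6 1, 2 and 3 and DKO DN 1 and 2) and any 1 of 3 libraries (DKO NKp46 1 and 2 and DKO CCR6 3), with adjusted p up to 0.16 and 0.10.

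Mean levels of both A1 copies were highest in ILC1 and lowest in CCR6, but the low CCR6 level was less certain for Bcl2a1b, as given below. The summed myeloid markers given above were also highest in ILC1. Among WT libraries, 5 of the 11 were called higher in ILC1 than in NKp46 (10.7% of all genes called either way). Of the same 11, 4 were called higher than in CCR6 (19.3%) and 7 higher than in DN (7.61%), with 0 lower in any pair. The part of these markers in the A1 levels was not tested. In WT libraries Bcl2a1d measured 155 ± 50.8 CPM in ILC1, 39.1 ± 3.37 in DN, 34.3 ± 3.51 in NKp46 and 11.6 ± 2.27 in CCR6, and ILC1 exceeded CCR6 by 3.75 ± 0.30 on the log2 scale (adjusted p = 3.6e-09). In DKO libraries the gap was 5.25 ± 0.32 (adjusted p = 8.3e-11), or 38.0-fold. Bcl2a1b in WT CCR6 was not called lower than in WT NKp46 (-0.52 ± 0.28, adjusted p = 0.37). In DKO libraries that comparison was called (-1.25 ± 0.29, adjusted p = 0.010). The DKO call was lost with limma voom, with the compared groups alone (adjusted p up to 0.20) and without any 1 of 3 libraries (up to 0.084). DN and NKp46 were not called different for Bcl2a1d in WT libraries, whereas Bcl2a1b was higher in DN than in NKp46 by 1.57 ± 0.28 (adjusted p = 0.0019). With all A1 rows summed that comparison gave 0.50 ± 0.23 and was not called (adjusted p = 0.34). For CCR6 against NKp46 the summed rows, mostly counts of Bcl2a1d, gave -1.30 ± 0.23 in WT libraries (edgeR, adjusted p = 8.2e-04). In DKO libraries they gave -2.02 ± 0.25 (adjusted p = 9.8e-06).

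Among the death genes, Bcl2l11 in WT libraries was highest in ILC1, at 66.05 ± 3.95 CPM, and exceeded NKp46 by 0.90 ± 0.16 (adjusted p = 4.1e-04), CCR6 by 0.87 ± 0.15 (adjusted p = 2.7e-04) and DN by 0.71 ± 0.15 (adjusted p = 0.0045). The DN call was lost without WT DN library 1 (0.054), without a filter on low counts (0.053) and in a fit of the compared groups alone (0.15), which also put the NKp46 comparison at the threshold (0.050). In DKO libraries CCR6, at 59.2 ± 3.76 CPM, stood above NKp46, at 32.3 ± 3.58 CPM, by 0.88 ± 0.15 (adjusted p = 9.0e-04), and ILC1 above NKp46 by 0.71 ± 0.15 (adjusted p = 0.0064; 0.059 without DKO ILC1 library 2 and 0.062 with the compared groups alone). Bbc3 was higher in WT ILC1 than in CCR6 by 1.71 ± 0.46 (adjusted p = 0.010) and than in DN by 1.91 ± 0.47 (adjusted p = 0.012), calls that were lost without WT CCR6 library 1 (0.053) and without WT DN library 1 or 3 (up to 0.085); the DN call was also lost with the compared groups alone (0.16). Pmaip1 was higher in WT CCR6 than in WT NKp46 by 2.93 ± 0.84 (adjusted p = 0.038), and this call was lost on leaving out any 1 of 11 libraries (0.012 to 0.18 over the 24 fits) and with the replicate number within genotype as a block (0.066).

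Genes around the family were taken from lists of survival and death regulators, 90 tested genes besides the members. DKO against WT called 10 of the 90 in CCR6 (2 higher, 8 lower; 3.97% of all genes called), 8 in DN (2 higher, 6 lower; 2.83%), 6 in NKp46 (2 higher, 4 lower; 4.16%) and 0 in ILC1 (1.06%), where 12 had an unadjusted p under 0.05 by edgeR. Of 17 cytokine signalling genes, 2 rose and 2 fell in CCR6, 1 rose and 3 fell in DN and 1 rose and 2 fell in NKp46. Il7r, the receptor chain for interleukin 7, measured 815, 786 and 784 CPM in DKO CCR6, against 1103, 1584 and 1519 CPM in WT CCR6. It fell by 0.82 ± 0.15 in CCR6 (adjusted p = 0.0014), 0.66 ± 0.15 in NKp46 (adjusted p = 0.012) and 0.62 ± 0.15 in DN (adjusted p = 0.019). Il2rb, the shared receptor chain for interleukins 2 and 15, fell by 0.83 ± 0.17 in NKp46 (adjusted p = 0.0053), 0.70 ± 0.17 in DN (adjusted p = 0.025) and 0.64 ± 0.17 in CCR6 (adjusted p = 0.034). The feedback inhibitor Socs2 rose by 1.31 ± 0.17 in CCR6 (adjusted p = 2.4e-05) and fell by 0.72 ± 0.17 in DN (adjusted p = 0.016), and its DKO effect differed among populations (joint test, adjusted p = 1.1e-04). The survival kinase gene Pim1 rose by 0.85 ± 0.15 in CCR6 (adjusted p = 8.7e-04), Stat5b, a transcription factor activated by these cytokines, by 0.80 ± 0.17 in DN (adjusted p = 0.0095), and Socs3 by 1.28 ± 0.17 in NKp46 (adjusted p = 4.9e-05).

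**Figure D5:**
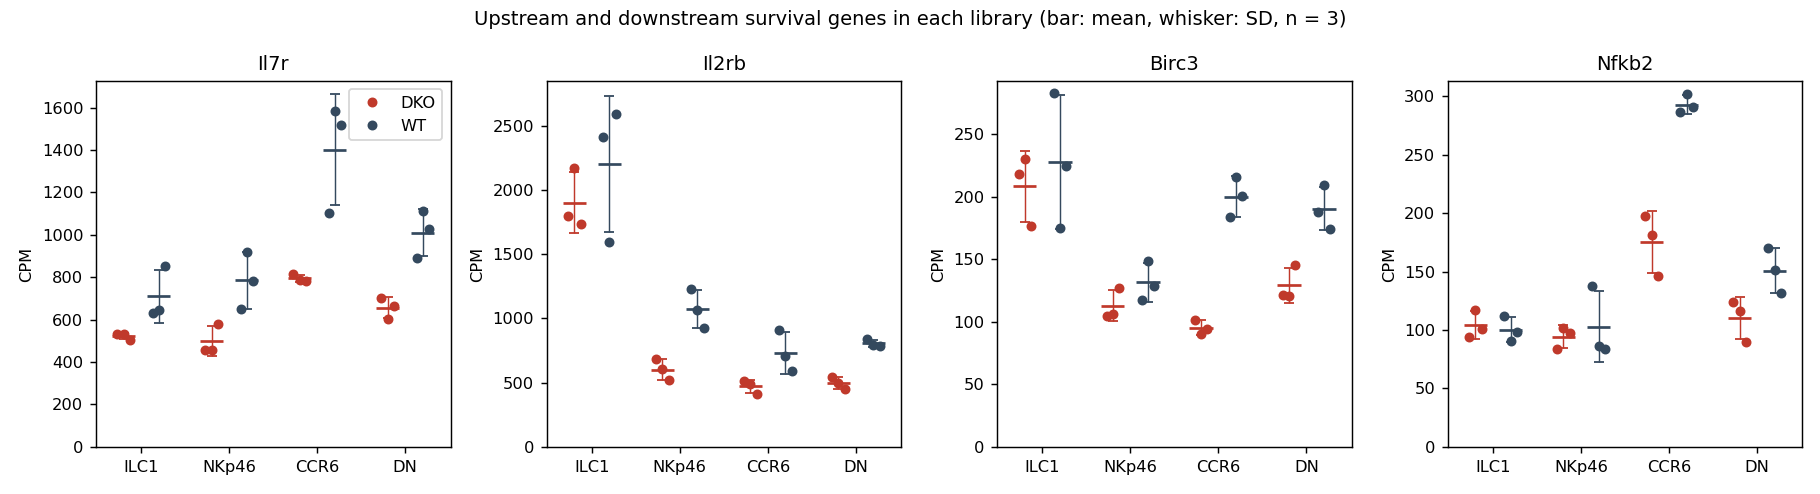
Il7r, Il2rb, Birc3 and Nfkb2 in CPM, each point a library, DKO (red) left of WT (dark blue), with mean and SD of 3. In CCR6 the DKO libraries of Birc3, at 90.3 to 102, lie below the WT libraries, at 184 to 216.

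Of 9 caspase and death receptor inhibitors, 1 fell in CCR6 and in DN (2.04% and 1.34% of all genes called lower). In NKp46 and ILC1, 0 were called (4.16% and 1.06% of all genes called). The gene that fell was Birc3, an NF-κB target that encodes the ubiquitin ligase cIAP2. It measured 102, 90.3 and 93.97 CPM in DKO CCR6, against 184, 216 and 201 CPM in WT CCR6, and fell by 1.07 ± 0.15 (adjusted p = 8.7e-05); in DN it fell by 0.56 ± 0.15 (adjusted p = 0.046). Of 9 NF-κB subunits and inhibitors, Nfkbie, an inhibitor, and Nfkb2, a subunit of the alternative pathway, fell in CCR6, by 0.96 ± 0.16 (adjusted p = 3.9e-04) and 0.74 ± 0.17 (adjusted p = 0.013), and 0 were called in the other populations. Averaged over the populations Nfkb1, the subunit gene of the classical pathway, rose by 0.45 ± 0.11 (adjusted p = 0.0062). On the same average Nfkbie fell by 0.37 ± 0.08 (adjusted p = 0.0022) and Nfkb2 by 0.32 ± 0.09 (adjusted p = 0.019). The median log2 fold change over the 9 NF-κB genes was -0.10 for DN, 0.01 for CCR6, 0.20 for NKp46 and 0.00 for ILC1.

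Of 14 further BCL2 family genes tested, 2 fell in each of NKp46, CCR6 and DN (2.17%, 2.04% and 1.34% of all genes called lower). Bcl2a1a fell in all 3, by 1.62 ± 0.42 (adjusted p = 0.028), 2.44 ± 0.43 (adjusted p = 9.7e-04) and 2.08 ± 0.41 (adjusted p = 0.0043). Bcl2a1a may share reads with the members Bcl2a1b and Bcl2a1d, so its fall is not separate from theirs. Bcl2l15 was called lower in NKp46 (adjusted p = 0.021), where it had 1 count over the DKO libraries and 133 over the WT libraries, and in CCR6 (adjusted p = 0.0099), where it had 2 and 259 counts. Bnip3, a mitochondrial BH3-like gene linked to mitophagy, fell by 0.98 ± 0.25 in DN (adjusted p = 0.034). On average over the populations Bik, a BH3-only gene, rose by 0.48 ± 0.15 (adjusted p = 0.037).

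Downstream of the mitochondria little was called. Over all tested genes, 2.83% were called in DN, 4.16% in NKp46, 3.97% in CCR6 and 10.8% on average over the populations. Of 14 apoptosome and caspase genes, Aifm1, a mitochondrial flavoprotein, rose in DN by 0.79 ± 0.17 (adjusted p = 0.0093), and Cycs, the gene of cytochrome c, rose on average by 0.36 ± 0.08 (adjusted p = 0.0037). Of 12 death receptor genes, Tnfrsf10b, the TRAIL receptor, rose in NKp46 by 1.24 ± 0.29 (adjusted p = 0.015). Fasl was called lower in CCR6 (adjusted p = 0.0029), with 2 counts over the DKO libraries and 243 over the WT libraries, of which 1 had 0. Of 11 p53 and FOXO genes, Trp53 rose by 0.43 ± 0.10 on average (adjusted p = 0.0040) and Ddit3 fell by 0.51 ± 0.13 (adjusted p = 0.013), and no single population was called.

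The genes whose log2(CPM + 1) tracked each member most closely over the 24 libraries were looked up among 9275 genes with a mean of at least 5 CPM. Bcl2 was closest to the MHC class II genes H2-Eb1 (Pearson r = 0.890) and H2-Ab1 (r = 0.853), and to Baz2b (r = 0.834). Bcl2a1d was closest to Cd52 (r = 0.974), Epsti1 (r = 0.973) and Serpinb6b (r = 0.972), and Bcl2a1b to Stk17b (r = 0.976), the copy Bcl2a1a (r = 0.955) and Smim3 (r = 0.943). Bcl2l11 had weaker partners, with Mllt3 at r = 0.715 as the first, and the first partner of the 6 other members reached 0.789 (Bbc3, with Coq2) to 0.884 (Mcl1, with Ier5). These values describe 24 libraries that share populations and genotypes.

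Promoter windows of RefSeq genes on GRCm38.p6, from 250 bases before to 50 after the start, were searched on both strands for short motifs. Windows of 9 of the 10 members were counted, and Pmaip1 was not looked up. The core AGGTCA, which REV-ERB and ROR receptors bind, occurred in 1 of 14 windows of the members, a Bcl2l1 start, against 16.3% of 32851 windows of all genes, and the longer form TAGGTCA, which contains it, in 0 of 14 (2.61%). TGGGTCA occurred in 2 (3.98%), and CACGTG, the E-box of clock activators, in 2 (7.15%). None of these letters occurred in the windows of Bcl2, Bcl2a1b or Bcl2a1d. Matches describe letters in these windows and do not show binding.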

How the data were processed

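The deposited table holds whole-number counts of reads per Ensembl gene, not normalized, as its values show; the authors made it before deposit. Per the labels' protocols, libraries were made from 10 ng of RNA with a low-input SMARTer kit in 12 to 15 PCR cycles and sequenced on a NovaSeq, with no molecular identifiers named, so intervals cover counting and library spread but not PCR copies. The mm10 build, STAR 2.7.9a, Salmon 1.5.2, featureCounts 2.0.3, R 4.1 and DESeq2 are named in the submitters' processing notes. The sources used here do not give the counter, its strand setting, how multi-mapped reads were handled or the annotation release.

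Of 55774 rows, 455 belonged to 168 IDs on more than 1 row; after keeping the first row of each ID, 55487 genes remained. There were 0 unused value columns. Library sizes were scaled with TMM factors (trimmed mean of M values). Genes that passed edgeR filterByExpr with the 8 groups (21286) were fitted with edgeR 4.0.16 in R 4.3.3 (quasi-likelihood, robust, 8 group means, 16 residual degrees of freedom, common biological coefficient of variation 0.573). Adjusted p-values are Benjamini-Hochberg over all tested genes. The test was also run on simulated counts drawn separately for each library. Those counts lacked the deviation shared by libraries of the same number, given below, and no result here rests on them. Levels per kb divide CPM by the merged exon length of GENCODE genes on GRCm38. The alternatives were DESeq2 1.42.0, its size factors in edgeR, limma voom (limma 3.58.1), no low-count filter, fits of the compared groups alone, summed Bcl2a1 rows, replicate blocks and leaving out each library.

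Groups share replicate numbers, which the labels do not tie to animals. Deviations from group means of libraries with the same number had correlations above 0.1 in all 3 pairs for 0 of 4 DKO and WT comparisons and for 3 of 12 population pairs (WT CCR6 with NKp46, 0.18 to 0.19; WT DN with NKp46, 0.13 to 0.25; DKO DN with NKp46, 0.11 to 0.17). Counted singly, 7 of 12 DKO and WT pairs with the same number had r above 0.1 (median 0.15). With different numbers it was 2 of 24 (median -0.051). Between populations it was 10 of 18 same-number pairs in DKO and 9 of 18 in WT, against 2 of 36 with different numbers in each genotype. Libraries with the same number thus shared some deviation, and its source is not labelled. The main fit has no block.

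The members, the lists of related genes and the markers were chosen with earlier results of these data known. Named genes besides the members are up to 4 called genes per list and contrast by smallest adjusted p, and the 3 genes most correlated with a member, leaving out predicted genes.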

Additional observations from a re-analysis of the deposited data

Results flagged for a closer look

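The DKO effect on Bcl2 differed among the 4 populations by the joint edgeR test (adjusted p = 0.043), with log2 fold changes of -0.88 ± 0.13 in CCR6 and -0.44 ± 0.13 in ILC1 cells, and of -0.35 ± 0.13 in DN and 0.09 ± 0.13 in NKp46 cells. The DKO effect on Bcl2l11 also differed among populations (adjusted p = 0.047), with 0.71 ± 0.15 for CCR6 and 0.16 ± 0.15 for DN cells, and with -0.13 ± 0.15 for NKp46 and -0.32 ± 0.15 for ILC1. Both calls were fragile: the Bcl2 call was lost in 19 of 24 fits that left out 1 library, and the Bcl2l11 call in 22 of 24. The Bcl2l11 call was also lost without a filter on low counts (adjusted p = 0.22). Single outlying libraries were not tested within groups of 3.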

How the results depend on the processing

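Of the values of called members, 0 of 353 changed sign under the alternatives other than leaving out a library and 15 lost the call. Over the fits that left out 1 library, 0 of 1176 changed sign and 70 lost the call. Both totals include the joint tests of Bcl2 and Bcl2l11, which have no sign to change. Of the 70 lost calls, 19 were the joint call of Bcl2 and 22 that of Bcl2l11. DESeq2 called 11 DKO against WT values within populations in place of 7, 4 joint differences in place of 2 and 1 difference of ILC1 from the other populations in place of 0; without a low-count filter the last was also 1. Leaving out 1 library gave 6 to 8 calls within populations, 4 to 5 on average, 0 to 2 joint differences, 0 to 1 for ILC1 against the rest, 17 to 27 between WT populations and 14 to 17 between DKO populations. Between WT populations, leaving out WT ILC1 library 1, 2 or 3 gave 23, 23 and 27 calls in place of 20. Signs turned only for values that were not called. Bcl2l1 in CCR6 was -0.00 with DESeq2, its size factors or no filter, and 0.01 in DN with no filter. Bak1 in ILC1 was 0.05 with voom, and Pmaip1 in ILC1 was -0.24 with voom and -0.05 with the replicate block. Over the fits that left out 1 library, Bcl2l1 ranged from -0.09 to 0.10 in CCR6, -0.08 to 0.01 in DN, -0.24 to 0.28 in ILC1 and -0.11 to 0.02 on average. Bak1 ranged from -0.08 to 0.17 in DN and -0.88 to 0.30 in ILC1, Pmaip1 from -0.53 to 0.89 in ILC1 and -2.11 to 0.45 in NKp46, Bcl2 from -0.08 to 0.19 in NKp46 and Mcl1 from -0.21 to 0.10 in NKp46. The causes were not tested. With the replicate number as a block, 7 calls were made within populations and 4 on average; a block within genotype lost the Pmaip1 call between WT CCR6 and NKp46 (adjusted p = 0.066), and no other call of a member changed. Among population pairs each library correlated best with its own number in 6 of 12 pairs. Pmaip1 had as few as 2 counts in a DKO NKp46 library.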
